A study of Homo sapiens with 6 samples.

Results

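EGFR and its closest neighbours on the short arm of chromosome 7, SEC61G, LANCL2 and VOPP1, are described here in sorted cells of 2 human basal-like breast cancer lines, MDA-MB-468 and HCC70. The 4 genes were found by Entrez Gene ID in the deposited table (EGFR 1956, SEC61G 23480, LANCL2 55915 and VOPP1 81552), which held 18795 genes with usable rows, and all 4 passed the filter of a mean of at least 1 FPKM that left 12454 genes for testing. FPKM scales a gene's fragments by its length and by the size of the library. A tilt with transcript length remained between libraries, as described below, so levels of genes of unlike length are only roughly comparable. Cells of each line were fixed in methanol, stained and sorted into cells positive for keratin 18 and vimentin (K18+Vim+), for keratin 18 and keratin 14 (K18+K14+), or for keratin 18 (K18+). Each of the 6 combinations of line and population gave 1 library, so the lines were the only replicates of a population and the populations the only replicates of a line. MDA-MB-468 was grown in Leibovitz L15 medium and HCC70 in RPMI medium, both with serum, so line and medium cannot be told apart. No treatment was given, and DNA copy number was not measured in the data used here. The labels give the K18+Vim+ and K18+ libraries of HCC70 the same index, and nothing in them says that the sorted populations came from separate cultures.

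EGFR encodes the epidermal growth factor receptor, a receptor tyrosine kinase that pairs with itself or with other ERBB receptors when a ligand binds and then drives the RAS-MAPK and PI3K-AKT pathways. MDA-MB-468 is known for an amplified EGFR gene, and an amplified stretch of a chromosome usually carries neighbouring genes along with its driver. SEC61G encodes the small gamma subunit of the Sec61 channel, through which new proteins enter the endoplasmic reticulum. LANCL2 encodes a LanC-like protein related to bacterial enzymes that make cyclic peptides, and VOPP1 encodes a vesicle-associated protein that is also called ECOP, a name given for its co-amplification with EGFR.

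In the order of the RefSeq gene table (GRCh38.p14, used for order and names only, since the authors worked in GRCh37), SEC61G lies 1 place to the telomere side of EGFR, and LANCL2 and VOPP1 follow at 1 and 2 places to the centromere side. Because the members are compared between the lines, the 250 bases before the start of each are shown as far as the RefSeq promoter table of build GRCh38.p14 lists them. LANCL2 was not matched. For VOPP1, with 7 starts listed, and EGFR, with 2, the outermost start was taken. Capitals mark the GC box GGGCGG, or CCGCCC where it lies on the other strand.
EGFR (chr7:55018767-55019016, plus strand): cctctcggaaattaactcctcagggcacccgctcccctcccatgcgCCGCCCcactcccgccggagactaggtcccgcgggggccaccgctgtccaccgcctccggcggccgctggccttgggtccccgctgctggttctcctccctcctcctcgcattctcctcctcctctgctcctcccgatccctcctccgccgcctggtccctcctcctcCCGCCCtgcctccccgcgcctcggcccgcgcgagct
SEC61G (chr7:54759212-54759461, minus strand): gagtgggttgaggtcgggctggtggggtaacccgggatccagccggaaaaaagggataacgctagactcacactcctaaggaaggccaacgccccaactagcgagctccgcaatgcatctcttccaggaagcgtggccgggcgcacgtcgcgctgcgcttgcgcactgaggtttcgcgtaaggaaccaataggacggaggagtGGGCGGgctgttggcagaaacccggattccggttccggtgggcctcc
VOPP1 (chr7:55572503-55572752, minus strand): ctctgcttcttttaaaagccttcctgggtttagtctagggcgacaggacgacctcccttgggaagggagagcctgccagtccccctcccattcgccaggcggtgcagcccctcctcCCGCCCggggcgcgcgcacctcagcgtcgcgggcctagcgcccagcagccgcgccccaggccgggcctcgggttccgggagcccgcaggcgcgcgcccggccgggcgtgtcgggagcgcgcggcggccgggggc

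The EGFR window held 2 GC boxes and the SEC61G and VOPP1 windows 1 each, and 54.6% of the 21203 such windows of genes in the table held at least 1 on either strand. None of the 3 windows held TATAAA on either strand, which 8.66% of all windows did. The SEC61G window alone held a CCAAT box (CCAAT on either strand), which was present in 32.7% of all windows and did not overlap the GC box. The bases were 73.6% G or C before EGFR, 75.2% before VOPP1 and 62.4% before SEC61G.

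The 4 genes were far higher in the K18+ and K18+K14+ libraries of MDA-MB-468 than in any HCC70 library, and the MDA-MB-468 library labelled K18+Vim+ departed from that: its values were the lowest of the line for all 4. EGFR stood at 10.4 FPKM in the K18+Vim+, 70.7 FPKM in the K18+K14+ and 153 FPKM in the K18+ library of MDA-MB-468, against 11.2, 17.9 and 23.3 FPKM in the same order in HCC70. The K18+Vim+ library of MDA-MB-468 was thus the lowest of all 6 for EGFR, below the lowest HCC70 value, and the lines overlapped. In both lines EGFR was highest in K18+ and lowest in K18+Vim+ cells.

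SEC61G stood at 720 FPKM in the K18+Vim+, 10000 FPKM in the K18+K14+ and 4875 FPKM in the K18+ library of MDA-MB-468, against 251, 222 and 218 FPKM in HCC70. The value of 10000 FPKM is the ceiling of the deposited table and the only value there, so the true level may be higher and a ratio of it to another level is a lower bound. SEC61G was the highest gene of the whole MDA-MB-468 K18+K14+ library and second in the K18+ library, where it took 0.953% of the summed FPKM, while in HCC70 K18+ cells it was in place 367 with 0.0429%. The lowest MDA-MB-468 value lay above the highest HCC70 value, and the 3 HCC70 values were close together (231 ± 18.3 FPKM, SD, n = 3). The coding part of SEC61G is shown because it makes plain how short this message is: 68 codons and a stop, 207 bases of a 459-base transcript in GENCODE 29 (transcript SEC61G-202, start and stop codons in capitals).
SEC61G: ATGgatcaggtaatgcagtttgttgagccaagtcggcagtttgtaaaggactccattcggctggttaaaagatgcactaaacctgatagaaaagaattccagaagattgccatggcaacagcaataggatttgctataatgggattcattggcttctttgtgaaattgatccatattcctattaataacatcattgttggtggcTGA

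LANCL2 stood at 26.3 FPKM in the K18+Vim+, 179 FPKM in the K18+K14+ and 291 FPKM in the K18+ library of MDA-MB-468, against 8.81, 5.61 and 10.1 FPKM in HCC70. Here too the lines did not overlap, and LANCL2, the lowest of the 4 genes in each HCC70 library, lay above EGFR in each MDA-MB-468 library. The LANCL2 to EGFR ratio of FPKM was 2.53, 2.53 and 1.90 in MDA-MB-468 K18+Vim+, K18+K14+ and K18+ cells, against 0.790, 0.314 and 0.436 in HCC70. VOPP1 stood at 24.1 FPKM in the K18+Vim+, 344 FPKM in the K18+K14+ and 251 FPKM in the K18+ library of MDA-MB-468, against 53.1, 54.3 and 67.4 FPKM in HCC70. As for EGFR, the MDA-MB-468 K18+Vim+ value was the lowest of the 6 and the lines overlapped. Over the HCC70 libraries VOPP1 averaged 58.3 ± 7.91 FPKM, EGFR 17.4 ± 6.06 FPKM and LANCL2 8.19 ± 2.32 FPKM (SD, n = 3), and relative to its mean the spread was smallest for VOPP1 of these 3 genes.

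**Figure D1:**
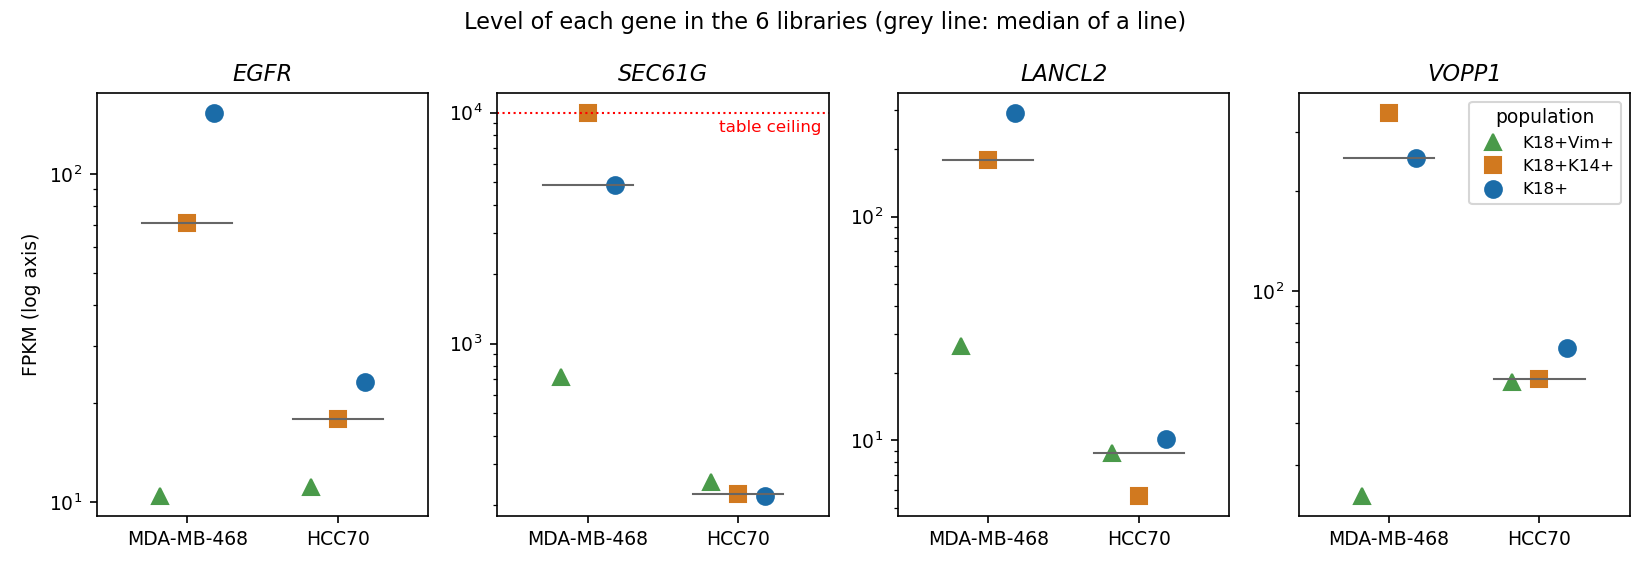
FPKM of EGFR, SEC61G, LANCL2 and VOPP1 (log axes, a scale of its own in each panel) in the 3 libraries of MDA-MB-468 and of HCC70, with symbols for the sorted population and a grey line at the median of a line. The K18+ and K18+K14+ points of MDA-MB-468 lie above all HCC70 points in each panel, while the K18+Vim+ point lies above them for SEC61G and LANCL2 and below them for EGFR and VOPP1; SEC61G reaches the ceiling of 10000 FPKM in the K18+K14+ library.

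The difference between the lines is the comparison that an amplified region in MDA-MB-468 bears on. Within the K18+ population the level in MDA-MB-468 was 28.8 times that in HCC70 for LANCL2, 22.4 times for SEC61G, 6.60 times for EGFR and 3.72 times for VOPP1. Within the K18+K14+ population the ratios were at least 45.0 for SEC61G, 31.9 for LANCL2, 6.32 for VOPP1 and 3.95 for EGFR. In the K18+Vim+ pair they were 2.99 for LANCL2, 2.86 for SEC61G, 0.935 for EGFR and 0.453 for VOPP1. LANCL2 and SEC61G thus had higher ratios than EGFR and VOPP1 in all 3 pairs. Ratios of different pairs are not on one scale. Summed FPKM was 765161 in MDA-MB-468 against 494335 in HCC70 for K18+K14+ cells, and 511591 against 507790 for K18+ cells. Of the 12454 genes tested, only 20 in the K18+ pair were higher in MDA-MB-468 by at least as much as LANCL2 (log2 difference 4.71), itself included. For SEC61G (4.48) the number was 28, and genes lower in MDA-MB-468 are not counted here. EGFR (2.67) was in place 167 and VOPP1 (1.88) in place 417.

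Fitted with limma over all 6 libraries, with population as a block, SEC61G and LANCL2 passed and EGFR and VOPP1 did not. On the log2(FPKM + 1) scale SEC61G was higher in MDA-MB-468 by 3.83 ± 0.76 (SE, 3 libraries per line, limma adjusted p = 0.0308) and LANCL2 by 3.65 ± 0.68 (limma adjusted p = 0.0265). EGFR differed by 1.50 ± 0.55 (limma adjusted p = 0.115) and VOPP1 by 1.14 ± 0.71 (limma adjusted p = 0.304). In this fit 12.2% of all genes passed, 4.54% as higher and 7.68% as lower in MDA-MB-468. The exact permutation test of 3 libraries against 3 gave a two-sided p of 0.1 for SEC61G and LANCL2, the smallest it can give, and 0.4 for EGFR and VOPP1. Unlike the limma fit, it took the libraries as unpaired and did not keep the pairing by population. All 3 MDA-MB-468 libraries lay above all 3 HCC70 libraries for 2 of the 4 genes and for 20.1% of all genes, and the K18+K14+ and K18+ libraries of MDA-MB-468 lay above all 3 HCC70 libraries for 4 of the 4 and for 28.0% of all genes.

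Without both K18+Vim+ libraries all 4 genes were higher in MDA-MB-468. The limma differences were 4.98 ± 0.67 for SEC61G (SE, 2 libraries per line, adjusted p = 0.00137), 4.74 ± 0.34 for LANCL2 (adjusted p = 7.39e-05), 2.30 ± 0.36 for EGFR (adjusted p = 0.00297) and 2.26 ± 0.41 for VOPP1 (adjusted p = 0.00539). In that fit 27.0% of all genes passed, 11.5% as higher and 15.5% as lower. It has 1 residual degree of freedom per gene, which is how far the line difference disagrees between the K18+ and K18+K14+ pairs. The limma SE joins this to a spread drawn from the other genes. For LANCL2 the pairs gave 4.71 and 4.77, much closer together than its SE of 0.34. The p-values do not measure the spread between cultures. SEC61G enters both fits with its MDA-MB-468 K18+K14+ value at the ceiling, so its line difference may be higher than given and its SE is uncertain. Leaving out the K18+ or the K18+K14+ library of either line ended the calls of SEC61G and LANCL2, at limma adjusted p between 0.0741 and 0.1.

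**Figure D2:**
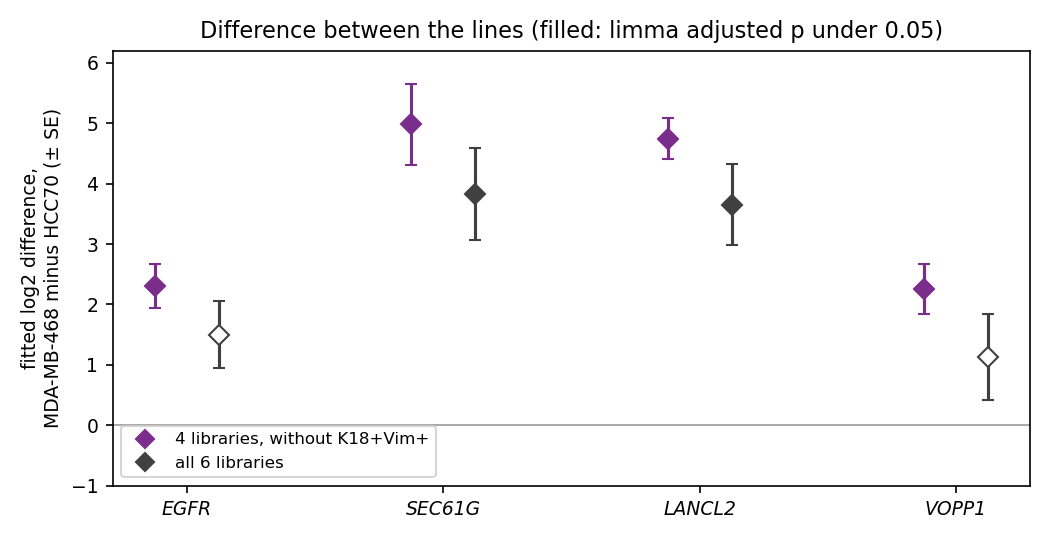
Fitted difference between MDA-MB-468 and HCC70 on the log2(FPKM + 1) scale for each gene, with bars for the SE, from 4 libraries without the K18+Vim+ pair and from all 6; filled symbols passed a limma adjusted p of 0.05. SEC61G and LANCL2 are filled in both fits, and EGFR and VOPP1 only without the K18+Vim+ pair.

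The MDA-MB-468 library labelled K18+Vim+ also stood apart in genes that bear on its identity. SMAD4 and RB1, a TGF-beta signal transducer and a cell cycle inhibitor that this line is known to lack, stood at 5.19 and 6.68 FPKM in it, against 0.31 and 0.269 FPKM in the K18+K14+ and 0.566 and 0.307 FPKM in the K18+ library of the line. The epithelial markers KRT8, KRT18, KRT19, EPCAM and CDH1 summed to 195 FPKM in it, against 3040 FPKM in the K18+K14+ and 2095 FPKM in the K18+ library, and from 1247 to 1497 FPKM in HCC70. Of the genes of the sort antigens, VIM stood at 259 FPKM in it against 13.3 and 12.2 FPKM in the K18+K14+ and K18+ libraries, and at 54.8 against 11.1 and 13.4 FPKM in HCC70. KRT18, the antigen shared by all 3 populations, was lower in it than in any other library, at 67.7 FPKM. KRT18 stood at 569 and 464 FPKM in the K18+K14+ and K18+ libraries of the line. In HCC70 K18+Vim+, K18+K14+ and K18+ cells the values were 216, 174 and 158 FPKM. The sample title of the low library names vimentin and not keratin 18, which comes from the sort as described. The stain reads protein and these values RNA. KRT14 stood at 6.42 FPKM in the library labelled K18+Vim+, 279 FPKM in the K18+K14+ and 47.8 FPKM in the K18+ library. In HCC70 its values were 5.76, 48.6 and 15.3 FPKM in the same order. The mesenchymal markers VIM, CDH2, FN1 and ZEB1 summed to 285 FPKM in it, most of it VIM itself, against 19.6 and 37.9 FPKM in the K18+K14+ and K18+ libraries, and to 138, 22.0 and 64.1 FPKM in HCC70. FN1, which encodes fibronectin, stood at 16.9 FPKM in it, against 6.11 and 25.2 FPKM in the K18+K14+ and K18+ libraries. CDH2, which encodes N-cadherin, stood at 6.43 FPKM in it and at no more than 0.112 FPKM in any other library. Of the leukocyte markers reported here, CD68 lay between 0.1 and 0.566 FPKM in MDA-MB-468 and between 5.82 and 6.61 FPKM in HCC70, PTPRC reached no more than 1.41 FPKM and CD3E no more than 0.164 FPKM in any library. The endothelial markers PECAM1 and CDH5 summed to no more than 0.506 FPKM in any library. Its column in the table also carries a differently styled name and the only 7 blank cells. What part these values have in the low levels of the 4 genes was not tested.

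Around the 4 genes the neighbours are given by side, a split chosen after their values were seen. The rule took the protein-coding genes within 20 places of EGFR, of which 30 besides the 4 had a row and 18 passed the filter. Of the 10 tested on the centromere side, 9 had higher fitted values in MDA-MB-468, with a median log2 difference of 1.41 against 0.01 over all genes, and 2 passed as higher and 0 as lower, beside 4.54% and 7.68% of all genes. Without the K18+Vim+ libraries 7 of the 10 passed as higher and 0 as lower, beside 11.5% and 15.5% of all genes, with a median of 1.68 against -0.05 over all genes. Of the 8 tested on the telomere side, 2 had higher fitted values, with a median of -0.67, and 1 passed as higher and 1 as lower. The sides are not matched in place. Tested genes lay 5 to 20 places from EGFR on the telomere side and 4 to 13 places on the centromere side. Without the K18+Vim+ libraries 2 passed as higher and 2 as lower, with a median of -0.72.

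VSTM2A, POM121L12 and COBL, the 3 nearest on the telomere side, were at or near the floor of 0.1 FPKM in both lines for K18+K14+ and K18+ cells and were not tested, while COBL stood at 1.33 FPKM in the MDA-MB-468 library labelled K18+Vim+. On the centromere side SEPTIN14, a septin gene, stood at 0.759, 0.751 and 2.43 FPKM in MDA-MB-468 K18+Vim+, K18+K14+ and K18+ cells, against 1.89, 1.58 and 3.89 FPKM in HCC70. The zinc finger gene ZNF713 stood at 2.37, 4.70 and 6.75 FPKM in MDA-MB-468, against 1.82, 1.62 and 1.98 FPKM in HCC70. MRPS17, which encodes a protein of the mitochondrial ribosome, stood at 35.2, 109 and 54.2 FPKM in MDA-MB-468, against 12.7, 16.1 and 16.9 FPKM in HCC70, and passed with all libraries (log2 difference 1.91 ± 0.38, SE, limma adjusted p = 0.0301).

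With all 6 libraries, the largest fitted difference among the neighbours was that of SUN3, 16 places to the telomere side (2.26 ± 0.56, SE, limma adjusted p = 0.0483), and the lowest that of IGFBP3, 20 places to the same side (-3.12 ± 0.75, limma adjusted p = 0.0453). SUN3 stood at 2.62, 4.10 and 19.98 FPKM in MDA-MB-468 K18+Vim+, K18+K14+ and K18+ cells, against 0.662, 0.478 and 0.45 FPKM in HCC70, and its lines did not overlap. SUN3 encodes a nuclear envelope protein known from the testis and IGFBP3 a carrier of insulin-like growth factors. NUPR2, the farthest tested gene on the centromere side and singled out after its values were seen, stood at 1.2, 43.4 and 13.7 FPKM in MDA-MB-468 K18+Vim+, K18+K14+ and K18+ cells, against 2.14, 1.22 and 0.978 FPKM in HCC70. Its fitted difference was 2.24 ± 0.85 with all libraries (SE, limma adjusted p = 0.127), close to that of SUN3, and without the K18+Vim+ pair it was the largest of the neighbours (3.61 ± 0.41, limma adjusted p = 0.000624), against 2.82 ± 0.48 for SUN3 (limma adjusted p = 0.00384). Over 573 tested genes of chromosome 7, the 4 included, the median line difference was -0.25 with all libraries, against 0.01 over all genes. Of the 573, 20 passed as higher and 60 as lower, beside 4.54% and 7.68% of all genes. SEC61G was in place 1, LANCL2 in place 3, EGFR in place 30 and VOPP1 in place 52 among the 573.

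**Figure D3:**
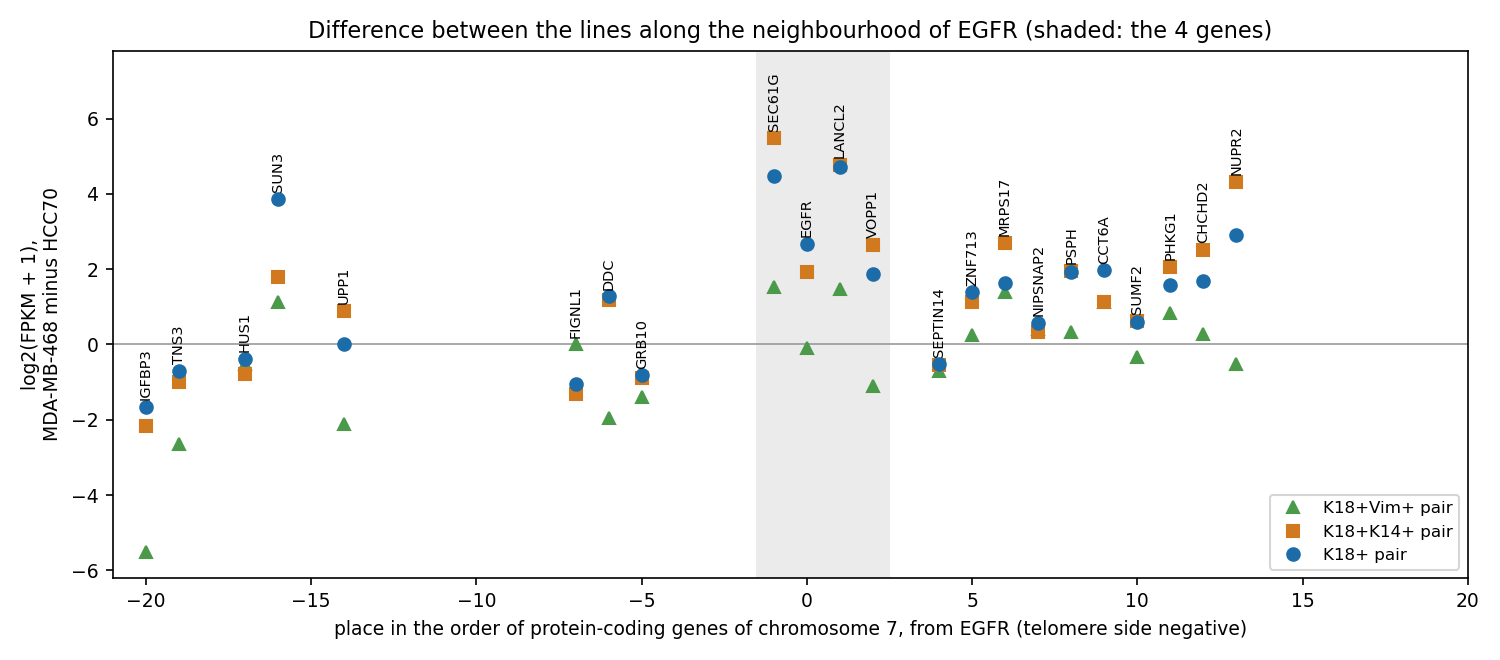
Difference between MDA-MB-468 and HCC70 in log2(FPKM + 1) for each tested protein-coding gene within 20 places of EGFR, by place on chromosome 7, with 1 symbol for each population pair and the 4 genes shaded. SEC61G and LANCL2 stand highest, 9 of the 10 genes on the centromere side lie above 0 in the K18+ and K18+K14+ pairs, and the K18+Vim+ pair lies below the other pairs for each of the 4 genes.

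Whether the 4 genes go with keratin 14 is asked by setting K18+K14+ against K18+ cells, and their values did not move one way. In MDA-MB-468 the level in K18+K14+ cells was 0.461 times that in K18+ cells for EGFR, 0.614 times for LANCL2, 1.37 times for VOPP1 and at least 2.05 times for SEC61G. In HCC70 it was 0.769 times for EGFR, 0.554 times for LANCL2, 0.807 times for VOPP1 and 1.02 times for SEC61G. EGFR and LANCL2 had lower values in K18+K14+ cells of both lines. Summed FPKM was 765161 in the K18+K14+ and 511591 in the K18+ library of MDA-MB-468. The median of the tested genes went the other way, at 8.12 against 10.6 FPKM. As a share of summed FPKM, VOPP1 was lower in the K18+K14+ library of this line (0.0449% against 0.0490%). SEC61G, at the ceiling in K18+K14+ cells, stood at 1.31% against 0.953%. With limma the fitted log2 differences ran from -0.73 ± 0.67 for EGFR to 0.53 ± 0.93 for SEC61G (SE, 2 libraries per population), and the adjusted p-values lay between 0.857 and 0.993. None of the 12454 genes (0%) passed in this comparison, and 428 had an unadjusted p under 0.05.

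Transcript length went along with these ratios in MDA-MB-468. The longest protein-coding transcripts in GENCODE 29 are of 9821 bases for EGFR, 4353 for LANCL2, 2962 for VOPP1 and 732 for SEC61G, the reverse of the order of the MDA-MB-468 ratios. In HCC70 the order differed, with LANCL2 (0.554 times) below EGFR (0.769 times), whose transcript is longer. Across 12409 genes with a length, the log2 difference between K18+K14+ and K18+ cells had a Spearman correlation with length of -0.32 in MDA-MB-468 and -0.25 in HCC70, as a description across genes of 1 library pair each. With the genes cut by length into 10 groups of near equal size, the median log2 difference in MDA-MB-468 was 0.56 in the group of the shortest transcripts, which holds SEC61G, and -0.44 in that of the longest, which holds EGFR. The RNA came from fixed cells, and the part of RNA breakage in these ratios was not tested. With the length trend removed from each library, a setting chosen after seeing the data, the fitted SEC61G difference turned to -0.07, while its difference between the lines was 3.29 and still passed (limma adjusted p = 0.0323).

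**Figure D4:**
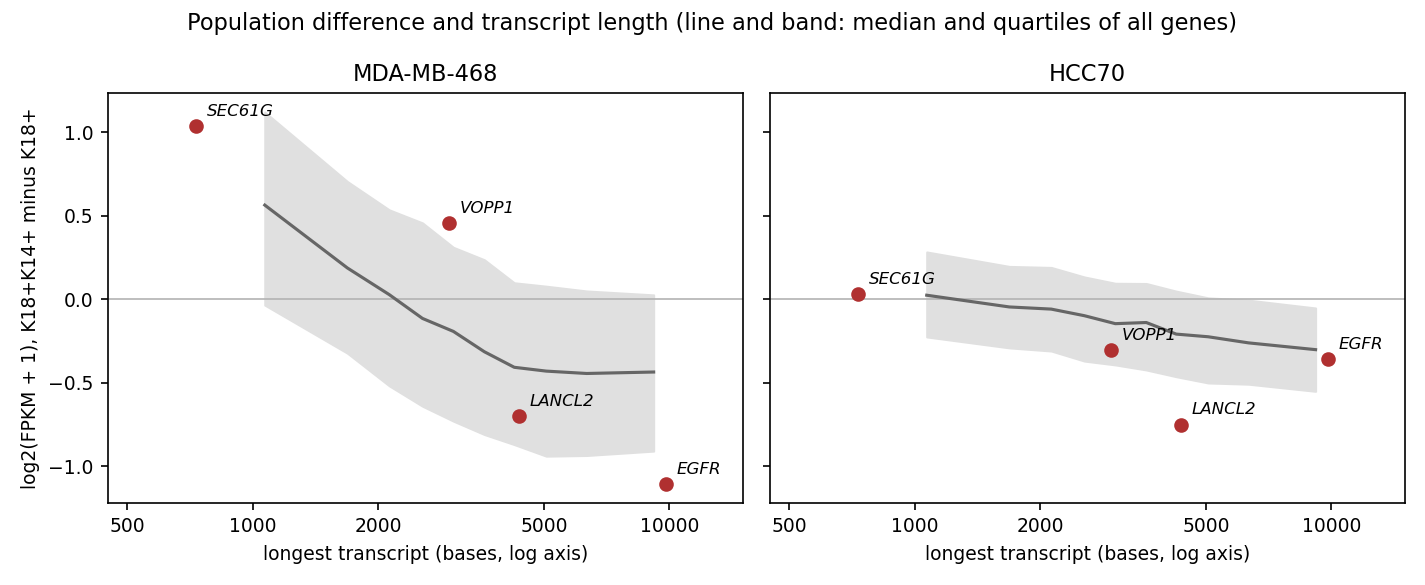
Difference between K18+K14+ and K18+ cells in log2(FPKM + 1) against the longest transcript in bases (log axis) for the 4 genes, in MDA-MB-468 and in HCC70, with a grey line and band for the median and quartiles of all genes in 10 groups by length. In MDA-MB-468 the 4 genes run from 1.04 for SEC61G, whose K18+K14+ value is at the ceiling, down to -1.11 for EGFR, and in both lines the grey line is lower for the longest than for the shortest transcripts.

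The comparisons of K18+Vim+ cells ask whether the genes go with vimentin, and the lines gave different pictures. In HCC70 EGFR stood at 0.480 times its K18+ level in K18+Vim+ cells, and only 3.48% of all genes had a log2 difference as low or lower, while LANCL2 (0.870 times), VOPP1 (0.788 times) and SEC61G (1.15 times) had values between 0.788 and 1.15 times those of K18+ cells. In the MDA-MB-468 library labelled K18+Vim+ the levels were 0.0679 times those of K18+ cells for EGFR, 0.0904 times for LANCL2, 0.0959 times for VOPP1 and 0.148 times for SEC61G. Against K18+K14+ cells, the K18+Vim+ level was 0.147 times for EGFR and for LANCL2, 0.0720 times for SEC61G and 0.0700 times for VOPP1 in MDA-MB-468, where the SEC61G ratio is at most that value. In HCC70 it was 0.623 times for EGFR, 0.977 times for VOPP1, 1.13 times for SEC61G and 1.57 times for LANCL2. No gene passed in either comparison over all 6 libraries (0%, with 532 and 680 genes at an unadjusted limma p under 0.05), and the 4 genes had limma adjusted p-values between 0.863 and 0.865 against K18+ and between 0.682 and 0.702 against K18+K14+. Without the HCC70 K18+Vim+ library, where the population is that 1 MDA-MB-468 library alone, 1500 genes passed against K18+ and 1988 against K18+K14+. In that fit the differences from K18+ cells were -3.57 for EGFR, -3.52 for VOPP1 and -3.43 for LANCL2 (limma adjusted p between 0.0025 and 0.00363) and -3.01 for SEC61G (limma adjusted p = 0.0594). These p-values rest on the spread of the other libraries and assume that the lone K18+Vim+ library varies like them. Without the MDA-MB-468 library labelled K18+Vim+ none of the 4 passed, and the differences from K18+ cells ran from -1.18 for EGFR to 0.46 for SEC61G.

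None of the tested partner genes of the same proteins passed between the lines with all libraries, beside 12.2% of all genes. They are too few for the lack of calls to set them apart from that share. ERBB2 and ERBB3, the receptors that EGFR pairs with, differed by -0.09 ± 0.36 and -1.08 ± 0.54 on the log2 scale (SE, limma adjusted p = 0.876 and 0.214) and did not pass without the K18+Vim+ pair either, and ERBB4 was at or near the floor in all libraries. SEC61A1, the pore-forming subunit of the Sec61 channel, stood at 64.9, 69.8 and 102 FPKM in MDA-MB-468 K18+Vim+, K18+K14+ and K18+ cells, against 150, 121 and 128 FPKM in HCC70. The other small subunit, SEC61B, stood at 359, 323 and 165 FPKM in MDA-MB-468, against 135, 117 and 122 FPKM in HCC70, and neither subunit passed (limma adjusted p = 0.182 and 0.105). SEC62, an accessory factor, was the 1 of the 5 channel partners that passed without the K18+Vim+ pair (1.89 ± 0.39, SE, limma adjusted p = 0.00928), beside 27.0% of all genes. LANCL1, the relative of LANCL2, did not pass (0.83 ± 0.45, limma adjusted p = 0.245), and LANCL3 was near the floor.

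Of 44 genes of the EGFR pathway (other receptors, ligands, downstream and response genes) 40 were tested, 1 passed as higher in MDA-MB-468 and 6 as lower, beside 4.54% and 7.68% of all genes, with a median of -0.44 against 0.01 over all genes. The adaptor gene GRB2 was the higher one (1.96 ± 0.44, SE, limma adjusted p = 0.0397). Those lower were the ligand gene EPGN (-2.31), SOS2 (-1.41), which encodes an exchange factor for RAS, CBLB (-2.64), a ubiquitin ligase that takes part in removing receptors, the kinase gene MAPK3 (-1.89), ERRFI1 (-1.74), which encodes an inhibitor that binds EGFR itself, and the immediate early gene FOS (-3.82), with limma adjusted p between 0.00473 and 0.0353. FOS stood at 2.55, 8.26 and 11.1 FPKM in MDA-MB-468 K18+Vim+, K18+K14+ and K18+ cells, against 76.6, 93.5 and 150 FPKM in HCC70. Without the K18+Vim+ pair 5 of the 40 passed as higher and 8 as lower, shares near the 11.5% and 15.5% of all genes in that fit. TGFA, the tested ligand gene with the next largest difference, stood at 0.546, 2.88 and 4.68 FPKM in MDA-MB-468, against 2.40, 3.52 and 4.10 FPKM in HCC70, and the lines overlapped.

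Over the 6 libraries the 4 genes resembled each other unequally. The Pearson correlation of log2(FPKM + 1) was highest between SEC61G and LANCL2 (0.97) and lowest between LANCL2 and VOPP1 (0.80), and that of EGFR was 0.92 with VOPP1, 0.87 with LANCL2 and 0.81 with SEC61G. These values rest on 6 libraries that share lines and populations, and SEC61G enters with 1 value at the ceiling. Among the 12453 other genes, VOPP1 was in place 184, LANCL2 in place 423 and SEC61G in place 712 by likeness to EGFR. The 5 genes most like EGFR were ST3GAL1, STMN1, PSMG2, GPATCH1 and ATP11A, with correlations from 0.991 to 0.998. ST3GAL1, a sialyltransferase gene, stood at 2.69, 8.03 and 12.2 FPKM in MDA-MB-468 K18+Vim+, K18+K14+ and K18+ cells, against 2.83, 3.89 and 3.97 FPKM in HCC70. The RefSeq table places the antisense gene EGFR-AS1 inside EGFR, and since strand is not stated in the sources used here, reads of the 2 cannot be told apart. The same table lists a SEC61G pseudogene, SEC61GP1, so how reads shared with it were counted is uncertain.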

How the data were processed

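RNA was sequenced from 6 sorted samples, 1 for each of 3 populations of 2 cell lines. Per the submitters' processing notes, reads were aligned with TopHat2 to GRCh37; how fragments were assigned to genes, the annotation and the strand setting are not stated there. The authors deposited FPKM per Entrez Gene ID, with a floor of 0.1 and a ceiling of 10000 visible in the values. With no read counts in the table, sequencing depth is unknown and values carry no counting interval. Of 18807 rows, 7 had a blank cell and were dropped, and 5 IDs occurred in 2 rows, of which the one with the higher mean was kept. This left 18795 genes (18732 with a RefSeq symbol). Summed FPKM ran from 489714 (HCC70 K18+Vim+) to 765161 (MDA-MB-468 K18+K14+) per library.

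The 12454 genes averaging 1 FPKM or more were put on the log2(FPKM + 1) scale. A linear model per gene was fitted in R 4.3.3 by limma 3.58.1 (eBayes with trend, population and cell line as terms, 2 residual degrees of freedom), with Benjamini-Hochberg adjustment over all of them and a threshold of 0.05. A fold change on this scale understates the change of low genes. The design pairs libraries by line and by population, since each line gave 1 library of each population. Transcript lengths are the longest protein-coding transcript in GENCODE 29. The fit was tested on simulated data. Python 3.11.15, pandas 2.3.3, numpy 2.4.6, scipy 1.17.1 and matplotlib 3.10.9 were used for the rest. Neighbours were the protein-coding genes within 20 places of EGFR, and named genes were the 4 members, the 3 nearest on each side, the extremes, partners and pathway lists. Members and lists were chosen with earlier results of these data known. Alternatives were pseudocounts of 0.1 and 5, no filter or a minimum of 5 FPKM, quantile normalization, no trend, no replicate block, fewer libraries, and, added after seeing the data, a length correction. A listed marker gene is not reported here.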

Additional observations from a re-analysis of the deposited data

Results flagged for a closer look

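Effects of opposite sign in the compared lines or populations were looked for among the 4 genes, and none of these differences was tested, since each rests on 1 library per line and population. In K18+K14+ against K18+ cells VOPP1 differed by 0.45 in MDA-MB-468 and -0.30 in HCC70 on the log2(FPKM + 1) scale, 0.76 apart. As a share of summed FPKM VOPP1 was lower in K18+K14+ cells of both lines (0.0449% against 0.0490% and 0.0110% against 0.0133%). In K18+Vim+ against K18+ cells SEC61G differed by -2.76 in MDA-MB-468 and 0.21 in HCC70, a difference of -2.96. In K18+Vim+ against K18+K14+ cells SEC61G differed by -3.79 and 0.18 (difference -3.97) and LANCL2 by -2.72 and 0.57 (difference -3.29). Between MDA-MB-468 and HCC70, EGFR differed by -0.09 in the K18+Vim+ and 2.67 in the K18+ pair (difference -2.76), and VOPP1 by -1.11 and 1.88 (difference -2.99). All but the first rest on the MDA-MB-468 library labelled K18+Vim+.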

How the results depend on the processing

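Between MDA-MB-468 and HCC70, 1522 genes passed. This became 3366 without both K18+Vim+ libraries and 0 with no filter on low values (3993 genes at an unadjusted limma p under 0.05), where SEC61G and LANCL2 kept their direction at limma adjusted p of 0.216 and 0.194; the cause was not tested. Without the replicate block for population 1875 genes passed, SEC61G and LANCL2 still among them (limma adjusted p = 0.0256 and 0.0240), and no call of the 4 genes changed. Leaving out each library in turn gave 206 (without HCC70 K18+) to 3360 (without HCC70 K18+Vim+) genes between the lines. It gave 0 to 1 for K18+K14+ against K18+, 0 to 1500 for K18+Vim+ against K18+ and 0 to 1988 for K18+Vim+ against K18+K14+.

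All 4 line differences kept their direction in every setting run, but every setting kept the K18+ or the K18+K14+ pair. In the K18+Vim+ pair alone EGFR differed by -0.09 and VOPP1 by -1.11. Leaving out either library of a pair gave the same fitted line difference, so these settings are not separate checks. Of the population differences, K18+K14+ against K18+ turned to -0.24 for VOPP1 with quantile normalization and to -0.071 for SEC61G with the length correction. With 1 library left out it ran from -1.61 to 0.14 for EGFR, -0.71 to 1.78 for SEC61G, -1.56 to 0.11 for LANCL2 and -1.05 to 1.20 for VOPP1. K18+Vim+ against K18+ ran from -3.01 to 0.46 for SEC61G, and against K18+K14+ from -2.71 to 0.56 for LANCL2. By Spearman correlation VOPP1 was in place 50, LANCL2 in place 1315 and SEC61G in place 2819 by likeness to EGFR. With 1 library per line and population and no read counts, the precision of a single value cannot be given.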
